A study of Drosophila melanogaster and Drosophila ananassae and Drosophila pseudoobscura with 52 samples.

Results

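The sites described here are 32 exonic positions of Drosophila RNA that were edited in D.mel and in at least 1 of its close relatives D.sim and D.yak, with no measured level of 1.5% or more in the distant relatives (D.ana, D.pse, D.vir). They were chosen from the measured levels. For each species the larger of the male and female level was taken, and a site was kept when D.mel was at 5% or more, D.sim or D.yak was at 5% or more, at least 2 of the 3 distant species were measured, and every measured distant value was under 1.5% in both sexes. The tables listed 2380 sites, of which 947 had a level in at least 1 species and sex. In all, 194 sites met the conditions on D.mel, on D.sim or D.yak and on the number of distant species measured. Of these, 32 were under 1.5% in the distant species, 151 had 5% or more in at least 1 distant species and serve below as comparison sites, and 11 lay in between. Because the species levels chose the sites, they are given as a description without tests. The DGRP libraries played no part in the choice.

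A-to-I RNA editing is the deamination of adenosine to inosine by ADAR enzymes, which act on double-stranded RNA formed when the sequence around a site folds back on a complementary stretch of the same transcript. Inosine pairs like guanosine, so an edited position is read as G in cDNA and can change a codon. Drosophila has a single Adar gene, and its known targets include many transcripts of ion channels and of proteins that release synaptic vesicles.

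Editing was measured by mmPCR-seq, in which many short cDNA amplicons are made in parallel microfluidic reactions and sequenced, and, for the distant species, also by a second targeted PCR. The editing level is the share of reads with G at a site, given here in percent. The species panel comprised 36 libraries of adult whole bodies aged 5 days, and the tables give 1 pooled value per species and sex, so no replicate spread exists for it. A separate table gives each of 16 libraries of D.mel males from 8 inbred DGRP lines.

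Each species was represented by males and females of a single UCSD stock, namely 14021-0231.69 for D.mel (Drosophila melanogaster), 14021-0251.011 for D.sim (Drosophila simulans), 14021-0261.01 for D.yak (Drosophila yakuba), 14024-0371.13 for D.ana (Drosophila ananassae), 14011-0121.94 for D.pse (Drosophila pseudoobscura) and 15010-1051.09 for D.vir (Drosophila virilis). A species difference therefore cannot be told apart from a difference between single stocks. The DGRP libraries were males of lines 26, 325, 352, 441, 721, 774, 786 and 804, also aged 5 days, with 2 libraries per line. Each sample pooled whole bodies, so a change in which tissues contribute a transcript cannot be told apart from a change of editing within a tissue. The study describes its samples as biological replicates apart from some marked as technical, which could not be matched to columns here. The labels do not say that the 2 libraries of a line came from separate cultures, and both columns of line 721 carry the same sample name, so p-values measure the spread between these libraries, which may in part be technical. The study's methods state that levels were taken at sites above a minimum number of mmPCR-seq reads, but the levels used here come without read counts, so the depth of single values is not known. Between 603 and 667 sites had a level per DGRP library. The 2 libraries of a line had a Spearman's rho of 0.966 to 0.978 across sites in 7 lines, and of 0.903 in line 774. The second library of line 774 was the lowest or the highest of the 16 at 12 of the 25 sites measured throughout, against 0 to 8 for each other library, so results that rest on it are also given without it.

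Sites are named by chromosome arm and a letter in order of position, and positions are those of D.mel in the dm3 build. A level near 0 in a distant species rests on the amplicon read there, so the primers of the sites that the results turn on are shown first. The study's lists held a primer pair under the site's own position for 25 of the 32 sites in D.mel, and for 17 (D.ana), 18 (D.pse) and 24 (D.vir) in the distant species. D.mel primers were used on all species in the first round, and the species' own primers in the second round. The primers of 2L-D, 3R-L and X-B are given because these sites were among the most edited in D.mel. Those of 2L-B and 3R-G are given because they are listed for sites with close neighbours in the set. Only the D.mel pairs of 2L-B and 3R-G are printed, although a pair was also listed at both sites for each distant species. A D.vir pair listed for 2L-D, where D.vir had no level, is left out as well. No distant pair was listed for X-B. Capitals mark the longest run of bases that a primer shares with the D.mel primer of the same direction.
2L-D D.mel forward: gctgctgtacggcatcat
2L-D D.mel reverse: gtttaaaaggggcacgtgatc
2L-D D.ana forward: gGCTGCTctacggtattatct
2L-D D.ana reverse: gtattcgaacATCagcgacac
2L-D D.pse forward: gctgctctatGGCATCATctac
2L-D D.pse reverse: gtattcgaacATCagcgagac
3R-L D.mel forward: gctgggaatttcgcctact
3R-L D.mel reverse: agcagtgtgggcataatcata
3R-L D.ana forward: tgctTACTcggcggatattc
3R-L D.ana reverse: aaggtttccggtttAGCAGat
3R-L D.vir forward: ttgataGCCcgcatgtttga
3R-L D.vir reverse: tagaacTGTtttacggcgtact
X-B D.mel forward: atatggagaccgatcaggaaga
X-B D.mel reverse: tcacgacgcactaacctaaatc
2L-B D.mel forward: gatcagcatgtgagcactct
2L-B D.mel reverse: caaagtggccgctgttcc
3R-G D.mel forward: ttagtctgttggaggcgttga
3R-G D.mel reverse: cgatctggcccatcttgaac

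The forward primers of 2L-D shared runs of 6 bases (D.ana) and 8 bases (D.pse) with the D.mel primer. A run ends at the first differing base. These primers also matched the D.mel primer at further bases outside the run, so its length understates how alike they are. At 3R-L the shared runs were of 3 to 5 bases, in primers that need not lie at the same place of the transcript. Runs this short can also be shared by primers for unrelated stretches. Which round gave a distant value is not separated in the tables, and the effect of primer mismatches on the levels was not tested.

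The set held 15 sites on 3R, 5 each on 2L and 3L, 4 on 2R, 2 on X and 1 on chromosome 4. The 3R share was 46.9%, compared with 23.7% of the 855 sites with a D.mel level and 17.9% of the comparison sites. The X share was 6.25%, compared with 21.4% and 21.9%. These shares were not tested, and neighbouring sites are not independent. When sites within 350 bp of each other were joined, the 32 sites formed 26 loci, of which 3 held 9 sites. The sites were not assigned to genes here, because no annotation of the dm3 build was used.

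The conditions had the following edges. Nearest inside the distant limit were 2R-B and X-A, each with a largest distant value of 1.1%, and 2R-D with 0.9%. Nearest outside it were X position 19236040 and X position 12532713, each at 1.55%, with D.mel levels of 58.05% and 8.4%. On the D.mel condition, 3R-C (5.3%), 3R-B (5.5%) and 3L-C (7%) were nearest inside, and 3R position 23500441 (4.75%) and 2L position 8178242 (3.95%) nearest outside. On the D.sim or D.yak condition, 3L-C was nearest inside at 5.05%, and 2L position 13299974 nearest outside at 4.95%. A further 17 sites were left out because 1 distant species alone was measured.

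The 32 sites spanned weak to nearly complete editing within the melanogaster subgroup and lay near 0 outside it. The median over sites of the larger sex was 12.65% in D.mel (range 5.3% to 87.75%) and 15.75% in D.sim (range 3.2% to 86.2%). In D.yak, where 26 sites were measured, it was 4.95% (range 0.3% to 88.1%). For the distant species the medians were 0.45% (D.ana), 0.45% (D.pse) and 0.3% (D.vir). Of 153 distant values, 15 were listed at exactly 0, the median was 0.3%, and 2 were at 1% or more. In its species comparison the study counted a position without a genomic A as 0. The tables do not mark such positions, so at a listed 0 a missing adenosine cannot be told apart from an unedited one. All 3 distant species were measured at 19 sites and 2 of them at 13 sites. Levels of the comparison sites were higher within the subgroup as well, with medians of 28.15% in D.mel, 31.5% in D.sim and 29.05% in D.yak, and by definition also edited outside it, with medians of 28.6% (D.ana), 20.8% (D.pse) and 15.7% (D.vir).

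**Figure D1:**
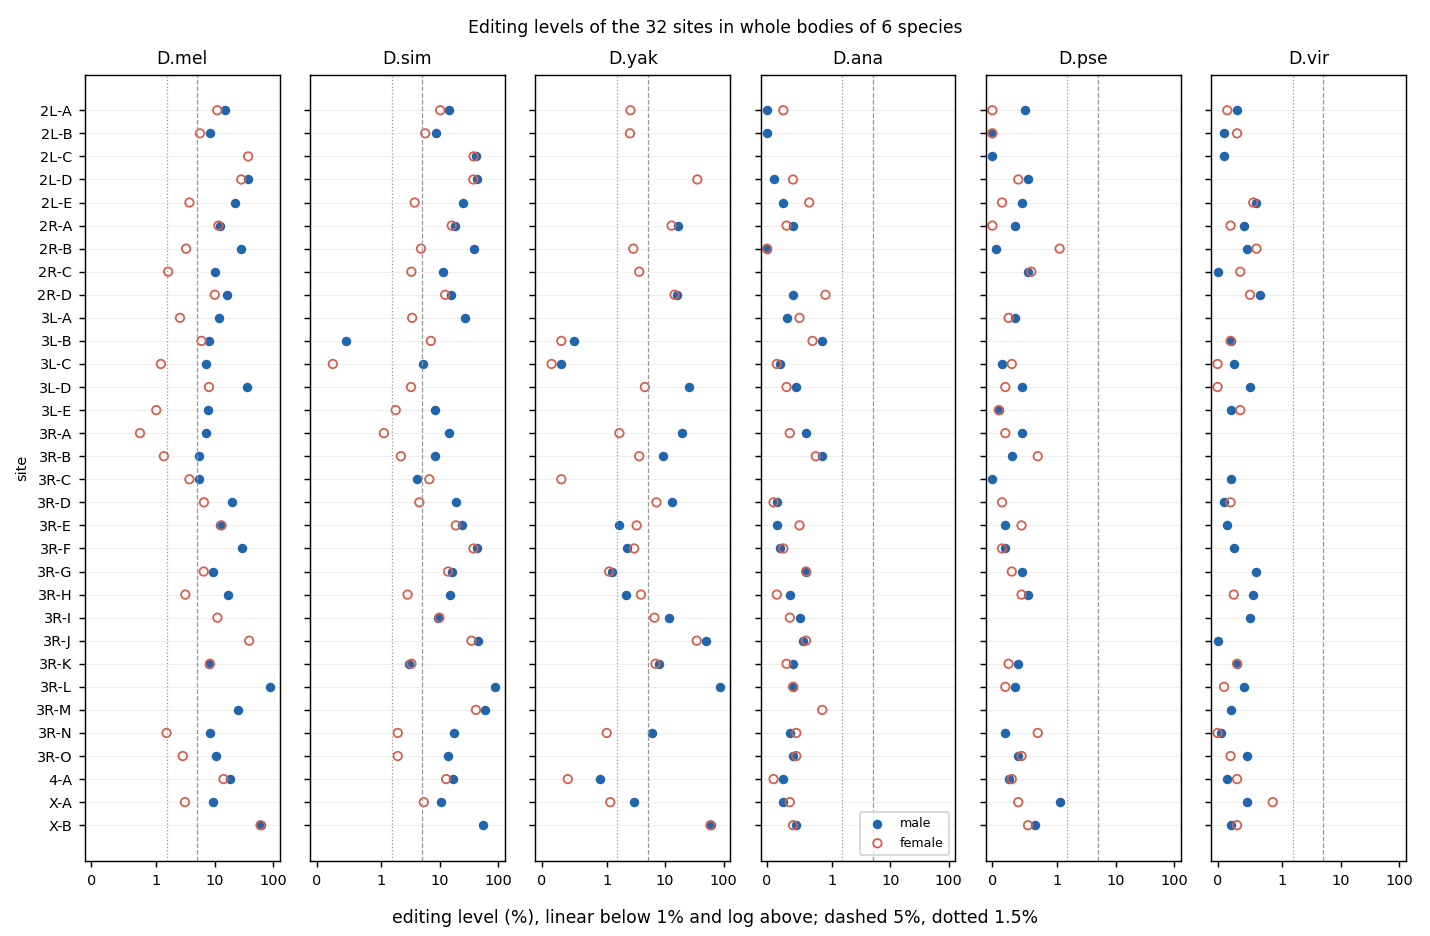
Editing level in percent (horizontal axis, linear below 1% and logarithmic above) of each of the 32 sites in males (filled) and females (open) of 6 species. Points of the 3 distant species all lie at or below 1.1%, left of the dotted line at 1.5% that defined the set, while D.yak points spread from 0.15% to 88.1%.

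The site with the highest level was 3R-L (3R position 23499011), at 87.75% in D.mel males, 86.2% in D.sim males and 88.1% in D.yak males, and at 0.1% to 0.4% in both sexes of the 3 distant species. X-B (X position 20644469) followed. Its male levels were 63.05% in D.mel, 55.4% in D.sim and 62.15% in D.yak, compared with 0.2% to 0.65% over both sexes of the distant species. Both sites were thus edited at similar levels in the 3 species of the subgroup.

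The next sites were 3R-J, 2L-C and 2L-D. 3R-J (3R position 23498894) stood at 39% in D.mel females, 34.75% in D.sim females and 34.75% in D.yak females, and at 44.9% and 49.65% in D.sim and D.yak males. 2L-C (2L position 3762371) was measured at 37.5% in D.mel females and 37.8% in D.sim females, with no D.yak value. 2L-D (2L position 9717707) stood at 28.55% in D.mel females, 37.4% in D.sim females and 35.6% in D.yak females, and at 0.1% to 0.55% in D.ana and D.pse.

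The ranking of the sites in D.mel was compared with that in its close relatives. Across 28 sites measured in males of both species, D.sim and D.mel levels had a Spearman's rho of 0.880 and a Pearson's r of 0.908, D.sim was above D.mel at 17 sites, and the median difference was 1.02 percentage points. Across 18 sites, D.yak and D.mel male levels had a rho of 0.434 and an r of 0.924, D.yak was above D.mel at 4 sites, and the median of D.yak minus D.mel was -6.65 points. In females, across 24 sites, these were a rho of 0.592, an r of 0.949, 8 sites above and a median of -1.4 points, with 18 sites within 5 points of D.mel. For D.sim females, across 28 sites, the rho was 0.885, the r was 0.955 and the median difference 0.375 points. Among comparison sites the male rho was 0.916 for D.sim (115 sites) and 0.896 for D.yak (106 sites). These coefficients are across sites, which share libraries and in part amplicons, and the conditions on the levels shape them.

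By their D.yak level the sites fell into several classes. Both D.sim and D.yak were at 5% or more at 11 sites, namely 2L-D, 2R-A, 2R-D, 3R-A, 3R-B, 3R-D, 3R-I, 3R-J, 3R-L, 3R-N and X-B. D.sim was at 5% or more and D.yak under 5% at 13 sites, of which 5 (3L-B, 3L-C, 3R-C, 3R-G and 4-A) were under 1.5% in D.yak. At 6 sites D.yak was not measured, and at 2 sites (3L-D and 3R-K) D.yak was at 5% or more and D.sim under 5%. At 3L-D the D.sim level came from females alone (3.2%, beside 4.5% in D.yak females and 8% in D.mel females). The D.sim male level at 3L-D is not known. In the second class, chromosome 4 site 4-A (position 787890) stood at 18.3% in D.mel males, 17.05% in D.sim males and 0.9% in D.yak males. 3R-F (3R position 15056819) stood at 29.3%, 42.75% and 2.25% in the same order.

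Some of the low D.yak values came from females alone. At 5 of the 13 sites D.yak had no male level. At 2R-B (2R position 17508354) D.yak females stood at 2.85%, beside 3.25% in D.mel females and 4.75% in D.sim females, so the female levels lay close together and the D.yak male level is not known. At 2L-A (2L position 3503636) D.yak females stood at 2.55%, beside 11.1% in D.mel and 10.15% in D.sim females.

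Males were edited more than females at most sites, and at many by a large factor. In D.mel the male level was higher at 24 of 26 sites measured in both sexes, where 86.7% of all 458 sites at 5% or more in the larger sex had the higher level in males. The male level was at least 3 times the female level at 14 of the 26 sites, where the share over the 458 sites was 26.9%. The female levels of these 14 sites ran from 0.75% (3R-A) to 8% (3L-D), and a ratio over a level near 1% is not precise. The median ratio of male to female level was 3.04, compared with 1.28 at the comparison sites and 1.46 at the 458 sites. The median difference was 6.4 points, compared with 5.05 and 5.275. The comparison sites were edited at higher levels in D.mel (median 28.15%, compared with 12.65%) and were not matched for level. The tables give 1 value per sex and the choice of sites used the larger sex, so these counts carry no test.

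The largest differences in D.mel were at 3L-D, 2R-B, 2L-E, 3R-H and 3R-D. 3L-D (3L position 9885234) stood at 35.4% in males and 8% in females, and in D.yak at 25.75% and 4.5%. 2R-B stood at 27.85% and 3.25% in D.mel and at 38.75% and 4.75% in D.sim. At both sites the female level was thus a small part of the male level in each subgroup species measured in both sexes.

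2L-E (2L position 13188408) stood at 22.55% in D.mel males and 3.7% in D.mel females, and at 24.8% and 3.7% in D.sim. 3R-H (3R position 16819563) stood at 16.7% and 3.15% in D.mel and at 14.65% and 2.8% in D.sim, with 2.15% and 3.85% in D.yak, where the female level was the higher. 3R-D (3R position 14733521) stood at 19.7% and 6.55% in D.mel, at 18.8% and 4.45% in D.sim and at 12.9% and 7.1% in D.yak.

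Male and female levels in D.sim and D.yak were set beside those in D.mel, again without a test. Male levels were higher at 25 of 29 sites in D.sim, where the share over all sites at 5% or more was 88.2%, and at least 3 times higher at 12 of 29, where that share was 24.5%. Of the 14 sites with a ratio of at least 3 in D.mel, 13 were measured in both sexes of D.sim and 12 of these had such a ratio there. The exception was X-A, with a ratio of 3.06 in D.mel and 1.93 in D.sim. Of the 12 sites with a smaller ratio in D.mel, 11 were measured in D.sim and 0 had it. Across 24 sites the ratios of D.mel and D.sim had a rho of 0.846. The median ratio was 1.41 in D.sim and 1.67 in D.yak, compared with 1.21 and 1.15 at the comparison sites. Low female levels occurred here too, such as 0.25% at 3L-C in D.sim. In D.yak the male level was higher at 16 of 19 sites, where the share over all sites was 77.1%, and at least 3 times higher at 3 of 19 (3L-D, 3R-A and 3R-N), where that share was 17.8%. Of the 14 sites with a ratio of at least 3 in D.mel, 8 were measured in both sexes of D.yak. Such a ratio was found there at 3 of these 8. Across 16 sites the ratios of D.mel and D.yak had a rho of 0.641. How far ratios in D.mel recur in D.sim and D.yak was not counted at other sites. Whether this recurrence is particular to the set is therefore not known.

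**Figure D2:**
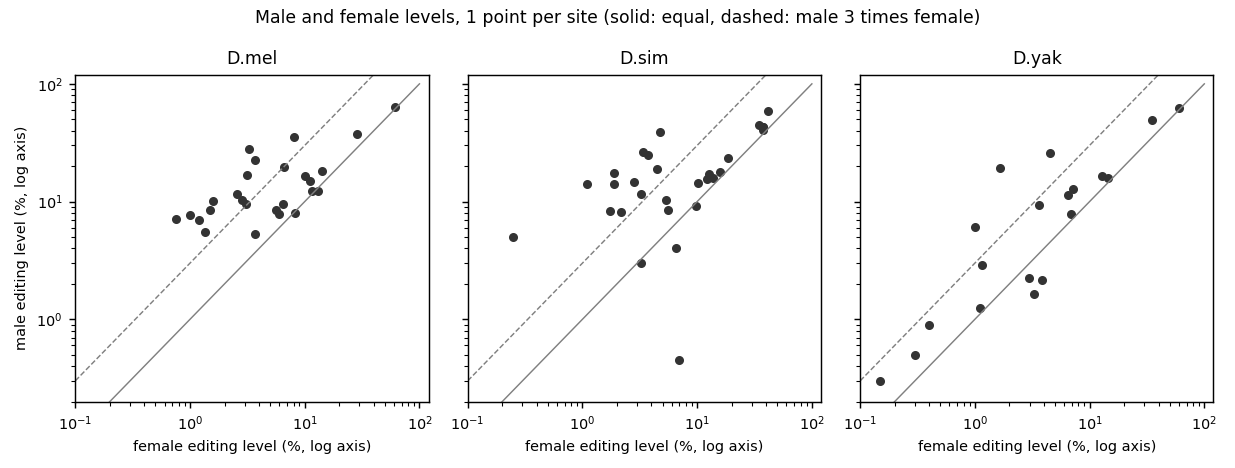
Male against female editing level in percent (both axes logarithmic), 1 point per site measured in both sexes, in D.mel (26 sites), D.sim (29 sites) and D.yak (19 sites). The solid line marks equal levels and the dashed line a male level 3 times the female level, which 14, 12 and 3 sites reached.

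Levels in the DGRP males, which the choice of sites did not use, showed the sites edited across D.mel lines. All 16 libraries gave a level at 25 sites, 1 site (3L-B) had 12 libraries, and 6 sites (2R-C, 3L-D, 3R-B, 3R-D, X-A and X-B) had none. At 18 of the 25 sites every line mean was at 5% or more, which was 72% where the share over all 364 sites at 5% or more in the panel's D.mel was 79.7%, and 101 of 112 comparison sites met this. No line mean was under 1.5% at any of the 25 sites or of the 112 comparison sites, while 13 of the 364 sites had such a line. At the 25 sites the lowest single library was at 1.5%. Of the 7 sites with a line mean under 5%, 3L-A had 7 such lines, 2L-A and 2L-B had 3 each, 3L-C, 3L-E and 3R-A had 2 each, and 3R-K had 1.

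The panel's D.mel males lay within the range of the DGRP males at most sites. The panel male level was inside the range of the 16 libraries at 20 of 22 sites and below it at 2, where 75% of 336 sites at 5% or more were inside. Across these 22 sites the panel male level and the mean over lines had a rho of 0.851 and an r of 0.959. Without the second library of line 774 the panel male level was inside at 19 sites, below at 2 and above at 1. The last was 3L-A (3L position 1027109), with 11.7% in panel males, 2.1% to 3.4% in 15 DGRP libraries and 12.2% in the second library of line 774. The other library of that line stood at 2.4%, so the lines other than 774 all lay below the panel stock at 3L-A.

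**Figure D3:**
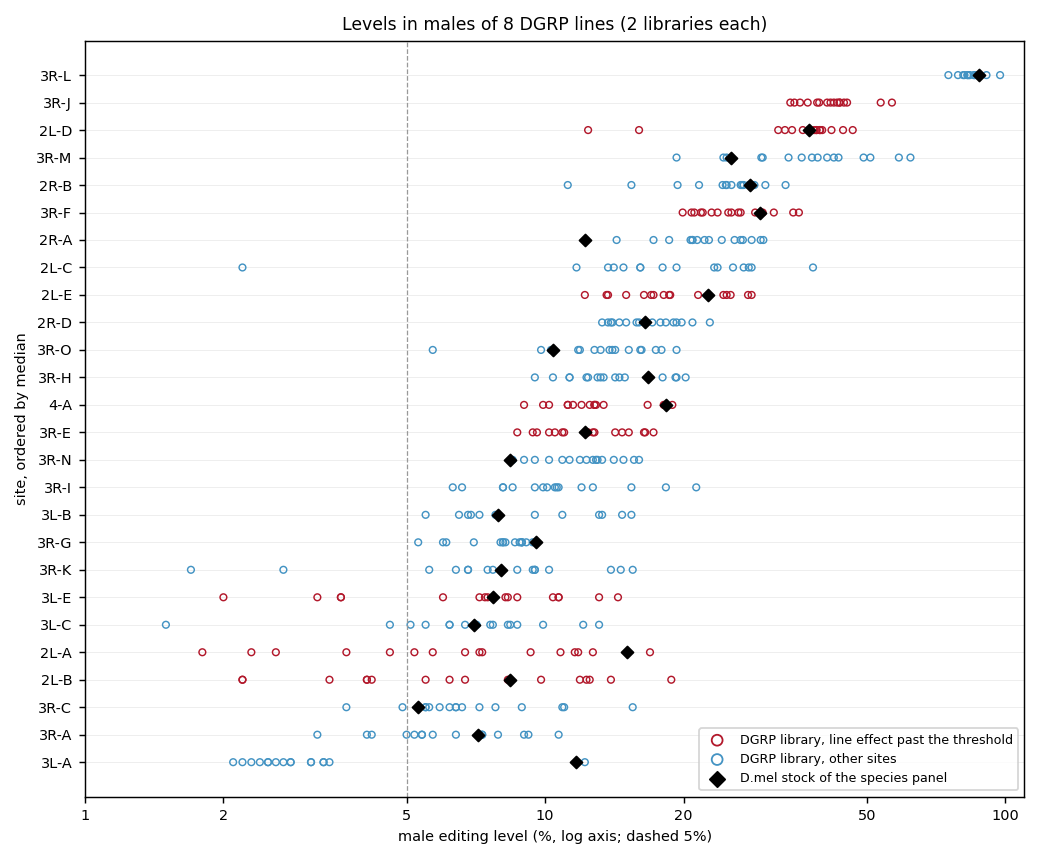
Male editing level in percent (logarithmic axis) at the 26 sites measured in DGRP libraries, with 1 circle per library and a diamond for males of the panel's D.mel stock. Red circles mark the 9 sites whose lines differed past the threshold. All circles lie at or above 1.5%, and at 2L-D the 2 libraries of line 786 stand apart at 12.4% and 16%.

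Whether the lines differed was tested at each site with limma's moderated F test of line, fitted over 478 sites on the logit scale with p-values adjusted by Benjamini-Hochberg over all 478, at a threshold of 0.05. The lines differed at 9 of the 25 sites (36%), where the share over all 478 sites was 19.2%. The share was 17.9% (20 of 112) among comparison sites and 21.5% (78 of 363) among sites at 5% or more in the panel's D.mel. At an unadjusted p under 0.05 there were 14 of 25 and 158 of 478 sites. The 9 sites lay in 7 of the 19 loci tested, and the difference of these shares was not tested. The range of line means had a median of 10.4 points over the 25 sites, 7.15 points over all sites tested and 7.725 points at comparison sites. Divided by the mean it was 0.619, compared with 0.327 at comparison sites and 0.450 at 364 sites at 5% or more in the panel's D.mel. Mean levels over lines differed between these groups (median 13.2% at the 25 sites and 28.7% at comparison sites), and the groups were not matched for level. The count depended on single lines. It was 4 without line 325 and 13 without line 774. Over all sites tested the count moved too, from 92 to 79 and 111 in the same order.

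2L-D showed the largest difference. The libraries of line 786 stood at 16% and 12.4%. The other 14 libraries lay between 32.1% (line 774) and 46.6% (line 26), with a median over all 16 of 38.6%. Line 786 was thus below every other library with no overlap. The line means averaged 35.6% ± 9.24 (SD, n = 8 lines) and ranged over 31.3 points, with a limma adjusted p of 0.000344. Without line 786 the limma adjusted p was 0.321, and over the other 31 alternatives the call held.

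3R-F and 3R-E (3R positions 15056819 and 15056818) are adjacent bases, and both were highest in line 26 and lowest in line 325. At 3R-F the libraries spanned 19.9% to 35.6% with a median of 25.2%. Line 26 stood at 35.6% and 34.6%, above every library of the other lines, and line 325 at 20.8% and 19.9%. The limma adjusted p was 0.00451, with a range of line means of 14.8 points, and it was 0.0638 without line 26. At 3R-E the libraries spanned 8.7% to 17.2% with a median of 12.6%, and line 325, at 8.7% and 9.4%, was below every library of the other lines. Its limma adjusted p was 0.0241, with a range of 7.4 points. The call was lost without line 26 (0.0862), without line 325 (0.0914) and without any single library of lines 26, 325 or 804 (0.0531 to 0.0769).

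3L-E (3L position 20372778) was low in lines 721 and 804. Line 721 stood at 3.6% and 2%, and line 804 at 3.2% and 3.6%. The other 12 libraries lay between 6% and 14.4%, the highest in line 352, so those 2 lines did not overlap with the rest. The range of line means was 9.6 points around a mean of 7.81% ± 3.37 (SD, n = 8 lines). The limma adjusted p was 0.00485 and lay between 0.000971 and 0.0343 over the 32 alternatives, so this call held in each of them.

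2L-A and 2L-B (2L positions 3503636 and 3503650), 14 bp apart, were lowest in line 325 and highest in line 774. At 2L-A line 325 stood at 2.3% and 1.8% and line 774 at 16.9% and 12.7%, with a median over the 16 libraries of 6.95%. At 2L-B these were 2.2% and 2.2%, 18.8% and 12.5%, and 6.45%. Line 325 lay below every other library at both sites, while line 774 lay above every other library at 2L-A and overlapped with line 786 at 2L-B. The limma adjusted p was 0.0186 at 2L-A and 0.0109 at 2L-B. Without line 774 it was 0.0432 and 0.0227. Without line 325 it was 0.109 and 0.0725, and at 2L-A the call was also lost without either library of line 325 (0.0549 and 0.0706).

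3R-J was highest in line 352, at 53.6% and 56.7%, while the other 14 libraries lay between 34.1% and 45.3% and line 721 was lowest at 34.8% and 34.1%. Line 352 did not overlap with the others. The range of line means was 20.7 points and the limma adjusted p was 0.0118. The call was lost without line 352 (0.196) and without its second library (0.0675).

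The last calls, at 4-A and 2L-E, were the least stable. At 4-A the libraries spanned 9% to 18.9% with a median of 12.7%. Lines 325 (18.9% and 18.1%) and 352 (16.7% and 18.2%) stood above every other library, and the limma adjusted p was 0.0270. It passed the threshold in 18 of 32 alternatives and was highest without line 325, at 0.146. At 2L-E the libraries spanned 12.2% to 28.1% with a median of 18.4%, highest in line 721 (25.3% and 28.1%) and lowest in line 774 (13.7% and 12.2%), with overlap between neighbouring lines. The limma adjusted p was 0.0475 and passed in 16 of 32 alternatives, with the highest value of 0.136 without line 721. The call was also lost without line 774 (0.103), whose second library was the lowest at this site.

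Other sites had wide ranges that did not pass. 3R-M (3R position 23500290) ranged over 24.1 points between line means, with libraries from 19.3% to 62.2%. Its libraries of the same line differed by up to 24.4 points (24.8% and 49.2% in line 441), and the limma adjusted p was 0.368. The largest difference within a line was thus as wide as the range of line means.

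2L-C ranged over 23 points, from 13.7% and 2.2% in line 774 to 23.7% and 38.2% in line 26, with a limma adjusted p of 0.112 that was 0.00184 without the first library of line 774, 0.0819 without the second and 0.0826 without the whole line. 2R-B ranged over 15.3 points, with line 325 lowest at 15.4% and 11.2% and the other 14 libraries between 19.4% and 33.3%. Its limma adjusted p was 0.0939, and it was 0.0114 without line 774, 0.00638 without the first and 0.0138 without the second library of that line. Line 325 thus did not overlap with the other lines at 2R-B, but the site passed only when line 774 or either of its libraries was left out. Without line 325 the limma adjusted p at 2R-B was 0.967. 3R-I, 3R-K and 3R-L likewise passed without line 774 (0.00484, 0.0203 and 0.0461), while with it their limma adjusted p-values were 0.10, 0.154 and 0.194, and without the second library of that line 0.00678, 0.0278 and 0.0582.

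At some loci, table sites near a site of the set were edited in a distant species. Another table site lay within 50 bp of 17 of the 32 sites, which was 53.1% where the share over the 855 sites with a D.mel level was 66.8%, and 62.9% at comparison sites. Within 350 bp, 14 sites had a neighbour outside the set with a level in a distant species, and 6 had such a neighbour at 5% or more there. The counts within 350 bp were not made for other sites, so whether they are high or low for a table site is not known.

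The clearest was 93 bp from 2L-D, at 2L position 9717614. This neighbour stood, in the larger sex, at 86.3% (D.mel), 89.55% (D.sim), 91.65% (D.yak), 96.6% (D.ana) and 91.35% (D.pse), while 2L-D was at 0.4% in D.ana and 0.55% in D.pse. The neighbour 71 bp from 2L-E stood at 30.75% in D.mel and 13.15% in D.pse, but at 0.35% in D.ana. The neighbours at 10 and 11 bp from 3R-D were edited in D.vir alone among the species measured, with 42.95% and 41.75% in D.vir and at most 0.45% within the subgroup and in D.ana (in D.pse the nearer had no value and the other stood at 0.55%).

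Near 3R-B (3R position 3829208), the sites 28 and 29 bp away stood at 6.6% and 8.1% in D.ana, where 3R-B itself was at 0.85%. The site 75 bp from 3R-H stood at 9.35% in D.ana and 0.3% in D.mel. Around 3R-M, 5 sites 168 to 339 bp away reached 5% or more in a distant species, with the highest at 83.85% in D.ana. The neighbour of 3R-H had no D.yak value. Strand is not given in the tables, so neighbours were taken by position alone.

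**Figure D4:**
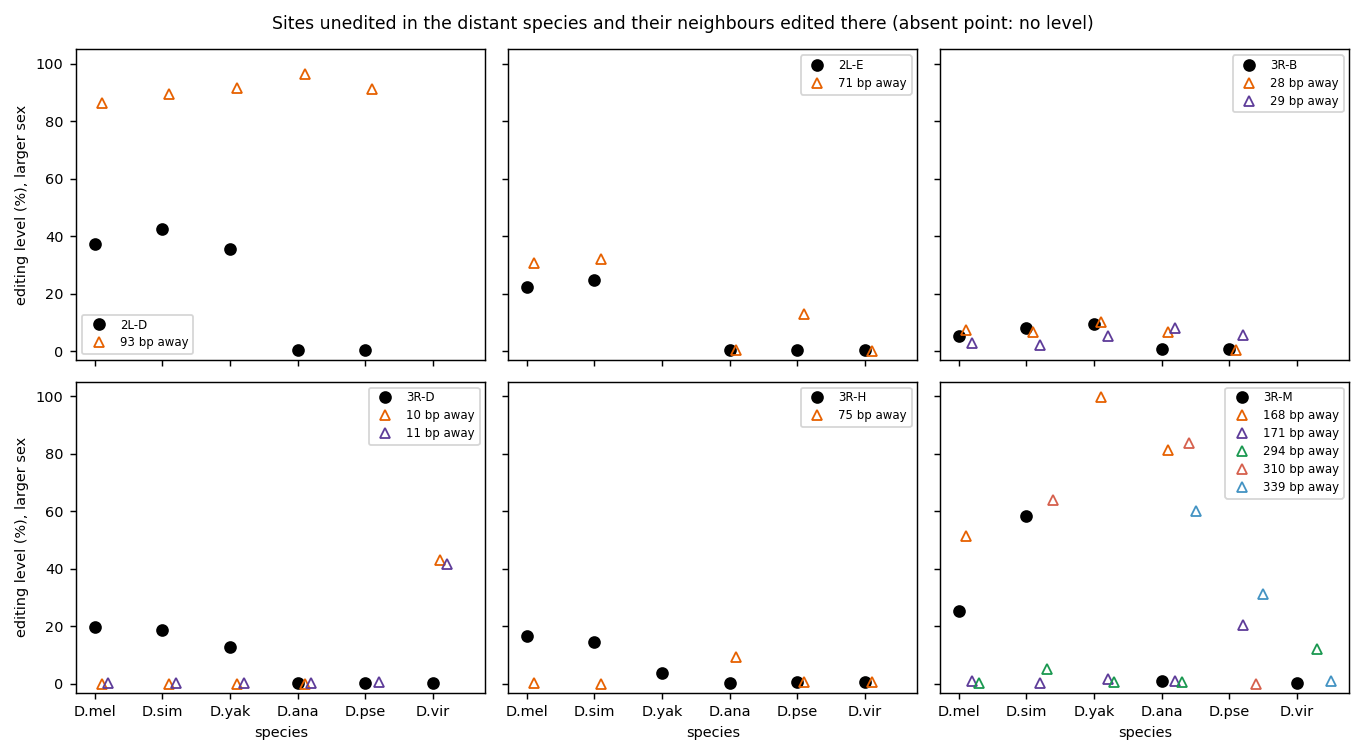
Editing level in percent (larger sex) by species at 6 sites of the set (black circles) and at their table neighbours within 350 bp that reached 5% or more in a distant species (open triangles, with the distance in bp). At 2L-D the neighbour 93 bp away stays between 86.3% and 96.6% in 5 species while 2L-D drops to 0.55% or less in D.ana and D.pse.

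Sites of the set that lay close together varied together over the DGRP lines in some pairs and not in others. This comparison was chosen after the data had been seen. Line means were correlated over the 8 lines for the 10 pairs of sites within 350 bp, with exact two-sided permutation p-values adjusted over all 692 such pairs among the tested sites. Pearson's r passed at 0.05 for 3 of the 10 pairs, where 16.8% of the 692 pairs passed, and the median r was 0.683 in the 10 pairs and 0.547 in all. Sites of 1 amplicon can be read from the same molecules, so pairs are not independent measurements.

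The strongest pair was 2L-A and 2L-B, with r = 0.949 (exact permutation p = 0.000322, adjusted p = 0.00858) and Spearman's rho = 0.929 (exact p = 0.00223, adjusted p = 0.0322), and with r = 0.846 without lines 325 and 774, the farthest from the median. 3R-E and 3R-F, 1 bp apart, had r = 0.938 (exact permutation p = 0.000248, adjusted p = 0.00858) and rho = 0.857 (exact p = 0.0107, adjusted p = 0.0699), with r = 0.876 without lines 26 and 441. 3R-J and 3R-K, 116 bp apart, had r = 0.912 (exact permutation p = 0.000670, adjusted p = 0.0132) and rho = 0.857 (exact p = 0.0107, adjusted p = 0.0699), with r = 0.754 without lines 352 and 721. In each of these pairs the same line was highest, and the same line lowest, at both sites.

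3R-K and 3R-L (3R positions 23499010 and 23499011) are adjacent bases whose line means showed no correlation past the threshold. Line 352 was highest at 3R-K (15.5% and 13.9%) and line 774 at 3R-L (86.7% and 97.4%), with r = -0.182 (exact permutation p = 0.664, adjusted p = 0.764) and rho = -0.381 (exact p = 0.360, adjusted p = 0.545). The r was -0.564 without lines 352 and 441 and 0.0814 without the second library of line 774, so no direction can be read. In that library 3R-L stood at 97.4% and 3R-K at 1.7%, compared with 86.7% and 8.7% in the other library of the line.

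For 3R-I and 3R-J (3R positions 23498893 and 23498894), r was 0.711 (exact permutation p = 0.0436, adjusted p = 0.131) and rho 0.667 (exact p = 0.0831, adjusted p = 0.227), with r = 0.820 without lines 352 and 774. Without the second library of line 774, where 3R-I stood at 21.3% beside 9.5% in the other library, r was 0.948 (exact permutation p = 0.00241, adjusted p = 0.0276). The same change took 3R-I and 3R-K from r = 0.517 (exact permutation p = 0.186, adjusted p = 0.327) to r = 0.873 (exact permutation p = 0.00588, adjusted p = 0.0407). For 3R-E and 3R-G, r was 0.760 (exact permutation p = 0.0265, adjusted p = 0.0946) and rho 0.952 (exact p = 0.00114, adjusted p = 0.0282), with r = 0.771 without lines 26 and 441.

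**Figure D5:**
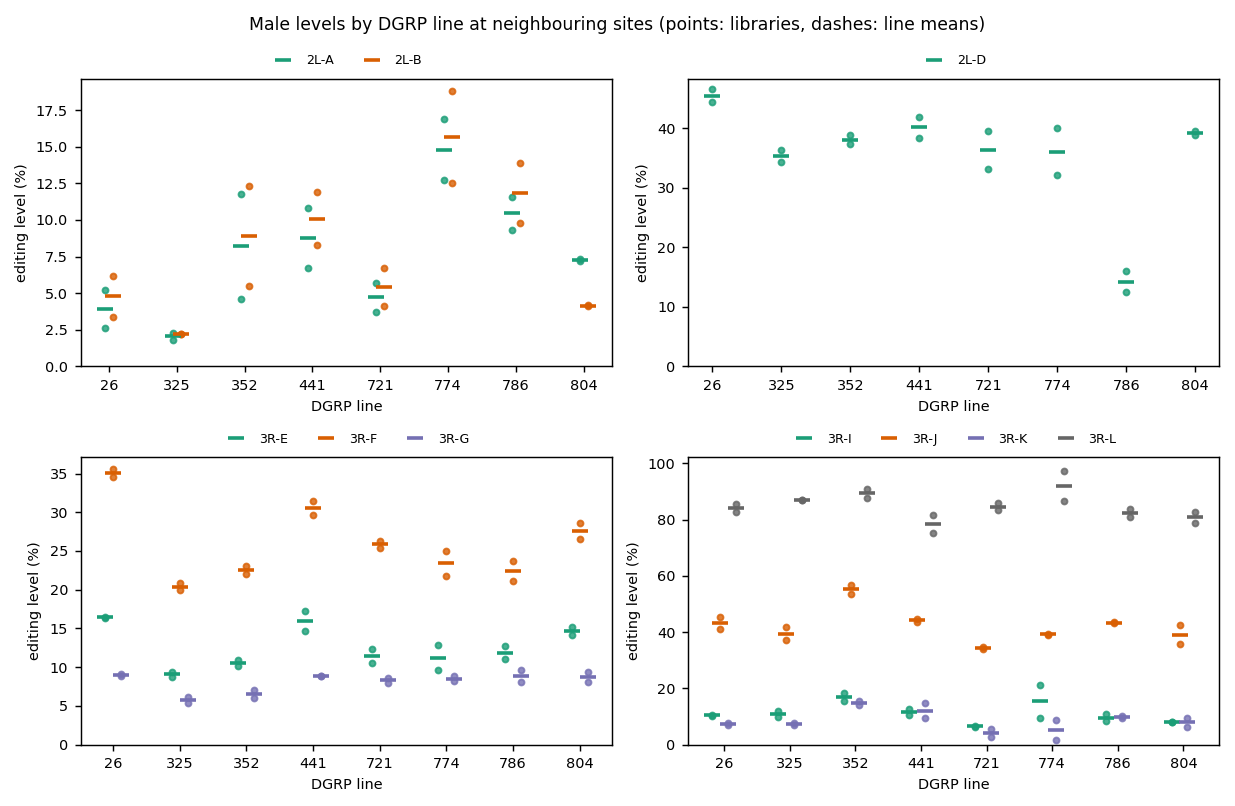
Male editing level in percent by DGRP line at 2L-A and 2L-B, at 2L-D, at 3R-E to 3R-G and at 3R-I to 3R-L, with points for the 2 libraries of a line and dashes for their mean. Levels of 2L-A and 2L-B move together over the lines from 2.05% and 2.2% in line 325 to 14.8% and 15.7% in line 774, and 2L-D is low in line 786 alone.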

How the data were processed

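The authors prepared whole-body RNA of adult flies, amplified selected sites by mmPCR-seq or targeted sequencing and, per the submitters' processing notes, aligned reads with TopHat and used the dm3 build. The TopHat version is not given in the sources used here. Each deposited value is a fraction, the edited share of reads, without normalization between samples and without counts. The species tables hold 1 fraction per site, species and sex (how libraries and rounds were combined is not stated), and the table of lines holds 1 per library. Values were converted to percent. In 16 positions of the line table, digits written as NA were restored to 200. Columns of the authors' tables left unassigned numbered 0.

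The members and lists were chosen with earlier results of these data known. The species levels were described and not tested. Line effects were tested with limma 3.58.1 in R 4.3.3 (moderated F test of line, log2 of (level + 0.01)/(1 - level + 0.01), sites with all 16 libraries and a mean of 1% or more, Benjamini-Hochberg over 478 sites), after the script was tested on simulated data. Correlations over lines used exact permutations in Python 3.11.15 with numpy 2.4.6. The comparison sites met the same conditions on D.mel, on D.sim or D.yak and on measured species, with 5% or more in a distant species.

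Sites named with full values were every site past the line threshold, the 5 with the highest D.mel level, the 5 with the widest range of line means, the 5 with the largest sex difference in D.mel, and those nearest each limit. Sites named beyond this rule (2L-A and 2R-B for their female D.yak levels, 3L-A, 3R-G, 3R-I, 3R-K and the neighbours) were chosen after their values were seen. Alternatives were other limits, offsets, filters, a block on library number, and fits without each library or line (a lone library was assumed to vary like the other lines). An alternative of the correlations without the second library of line 774 was chosen after seeing the data. Neighbours were taken on the same chromosome, since the tables give no strand, where the design had named strand. Genes were not assigned, since the annotation at hand is of another assembly.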

Additional observations from a re-analysis of the deposited data

Results flagged for a closer look

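At 3 sites the male minus female difference had opposite signs in 2 species. At 3L-B it was 1.95 points in D.mel (7.9% in males and 5.95% in females) and -6.55 points in D.sim (0.45% and 7%). At 3R-C it was 1.6 points in D.mel (5.3% and 3.7%) and -2.55 points in D.sim (4.05% and 6.6%). At 3R-H it was 13.55 points in D.mel (16.7% and 3.15%) and -1.7 points in D.yak (2.15% and 3.85%). Each species and sex has 1 value, so none of these differences was tested.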

How the results depend on the processing

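The number of sites depended on the limits. It was 32 as reported, 49 with 2% as the level for edited, 21 with 10%, 19 with all 3 distant species measured, 13 from female levels alone and 11 with D.sim and D.yak both required at 5% or more. It lay between 28 and 35 with limits of 1% or 2% for unedited or with male levels alone. Sites differing between DGRP lines numbered 92, and 74 to 191 when 1 library or line was left out. For the sites of the set the count was 9, and 4 to 17 when 1 library or line was left out, and under the other settings it lay between 8 and 10. For the set the lowest count was without line 325. The highest count was without the first library of line 774, both for the set and over all sites tested. The median male minus female difference was 8.6 points in D.mel, 8.25 in D.sim and 5.35 in D.yak among sites at 10% or more, compared with 6.4, 5.15 and 1.75. The correlation of 3R-K and 3R-L, -0.182 with all libraries, was 0.0814 without the second library of line 774, and neither passed.

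The labels do not say that library numbers pair the lines. The deviations of same-numbered libraries correlated between -0.129 and 0.315 over 21 pairs of lines (median 0.123), with 12 pairs over 0.1. Whether same-numbered libraries share an effect was not tested. The numbers were not used as pairs in the main fit, in which 92 sites and 9 sites of the set differed between lines. With a replicate block, 133 sites and 10 sites of the set differed between lines, the added site being 3R-G (limma adjusted p = 0.0401, compared with 0.0623). Precision is limited by the 2 libraries per line and by read depth that is not given per value, and the pooled species values allow no replicate check here.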
